A study of Mus musculus with 288 samples.

Results

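Fabp5, Scarb1, Lpl and Cd36 are 4 genes through which cells take up fatty acids and handle them, and they were described here across sorted single cells of the mouse upper small intestine. They were picked by name and are 4 of the 46078 mouse genes counted. Lipoprotein lipase (Lpl) is a secreted enzyme that frees fatty acids from the triglyceride of circulating lipoproteins. Cd36 and Scarb1 are scavenger receptors of the cell surface, Cd36 for long-chain fatty acids and oxidised lipoproteins and Scarb1 for high-density lipoprotein and its cholesteryl esters. Fabp5 is a small cytosolic protein that binds fatty acids and carries them within the cell. In the gut, enteroendocrine cells release hormones when fat is absorbed, among them the incretin GIP from K-cells and GLP-1, made from proglucagon (Gcg), from L-cells.

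The cells came from male GLU-Venus mice of 20 to 21 weeks, which carry the fluorescent protein Venus under the proglucagon promoter. The study describes the cells of the deeply sequenced mouse as Venus-positive, and those of the other mice as including Venus-negative control cells. No treatment is described, all cells shared the transgene, and the labels call every cell an L-cell. The 288 cells formed 3 pools of 96, named SLX-11175, SLX-11179 and SLX-9703. The labels gave neither the mouse nor the fluorescence of a cell, so each pool was taken as 1 mouse. The pool is a block in the class comparisons below, so their p-values measure how class differences vary between pools, not the spread of pool levels. Of the 288 cells, 250 had at least 20000 reads on mouse genes and at most 20% mitochondrial reads (75, 87 and 88 cells in the pools as named). The median number of reads on genes per cell was 52571, 70726 and 1975706, so a single read stood for a far higher level in a cell of the first 2 pools than in one of SLX-9703.

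Cells were classed by 1 gene each, in CPM, the counts of a gene scaled to 1000000 reads on mouse genes: Gip-high cells had at least 10000 CPM of Gip, Gcg-high cells at least 10000 CPM of Gcg, Pzp-positive cells at least 100 CPM of Pzp (pregnancy zone protein), and leukocytes at least 100 CPM of Ptprc (the CD45 antigen). The first 3 are called endocrine classes here. There were 25 Gip-high cells (10, 5 and 10 in the pools as named), 53 Gcg-high cells (16, 18 and 19), 64 Pzp-positive cells (14, 22 and 28) and 3 leukocytes, all 3 of SLX-9703. A further 5 cells passed several thresholds, 4 of them with Gip and Gcg, and 100 cells passed none. The 8 enteroendocrine markers of a fixed list (Chga, Chgb, Neurod1, Pcsk1, Scg3, Cpe, Cck and Sct) summed to 9618, 39749 and 17834 CPM in Gip-high cells, to 118314 to 228898 CPM in the other endocrine classes and to 526.1 CPM in leukocytes, all 8 with a read in each. The list holds the hormone genes Cck and Sct, so these sums also follow hormone content. Sct was the highest of the 8 in every Gip-high sum, and Cck in every sum of the other endocrine classes. The 3 leukocytes had reads of 12 of 17 leukocyte markers, summing to 7463 CPM against 14.3 to 254 CPM in the endocrine classes, with Ighm (immunoglobulin heavy chain) at 180 to 2126 CPM per cell, Cd3g (a subunit of the T-cell receptor complex) at 311 to 691 CPM and Cd74 (the invariant chain of class II molecules) at 1.35 to 1566 CPM. Cd8a, Cd79a, Gzmb and Lyz2 were at 0, and these markers together name no single kind of leukocyte. The cells of no class were mixed: plasma cell markers summed to 350933 CPM in SLX-11175 and 229663 CPM in SLX-11179 but to 15.8 CPM in SLX-9703, so Ptprc did not mark every immune cell.

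Fabp5 (ENSMUSG00000027533) lies on the plus strand of chr3:10012548-10016607 in build mm10, and several processed copies of it lie elsewhere in the genome. A stretch of 90 coding bases of its exon 2 is shown beside the matching stretch of a pair of these copies, because a read from this stretch fits more than 1 gene. Capitals mark the bases of a copy that differ from Fabp5, and each line runs 5′ to 3′ on the strand of its gene (GENCODE M21 transcripts, mm10). The stretch lies at chr3:10014971-10015060 (plus) in Fabp5, at chr9:57484042-57484131 (plus) in Gm6166 and at chr2:119878235-119878324 (minus) in Gm13998.
Fabp5: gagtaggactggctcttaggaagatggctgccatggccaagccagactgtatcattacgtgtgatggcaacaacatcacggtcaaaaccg
Gm6166: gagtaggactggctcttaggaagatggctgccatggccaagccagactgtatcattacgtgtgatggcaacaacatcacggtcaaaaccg
Gm13998: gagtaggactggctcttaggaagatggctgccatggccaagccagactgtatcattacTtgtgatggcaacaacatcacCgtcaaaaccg
Gm6166 did not differ from Fabp5 in any of the 90 bases, and Gm13998 differed in 2. In all, 5 annotated copies shared at least 50 words of 31 bases with Fabp5, and over all cells they held 7432 reads against 30371 on Fabp5, or 24.5% of its reads. The level of Fabp5 is therefore uncertain, by an amount that differed between sums. With the reads of the copies added, the Gcg-high sum went from 14.4 to 23.1 CPM in SLX-11179 and stayed at 25 CPM in SLX-11175. The Gip-high sum of SLX-11175 went from 542 to 711 CPM. The results of Fabp5 are also given with the reads of the copies added.

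Fabp5 was much higher in Gip-high cells than in the other endocrine classes, in every pool. Its level in the summed reads of the Gip-high cells was 542 CPM in SLX-11175, 1140 CPM in SLX-11179 and 1710 CPM in SLX-9703, with a mean of 1131 ± 584 CPM (SD, n = 3 pools). In Gcg-high cells it was 25, 14.4 and 42.2 CPM in the same order (27.2 ± 14.04, SD, n = 3), and in Pzp-positive cells 37.6, 14.8 and 29.8 CPM (27.4 ± 11.6, SD, n = 3). Each Gip-high sum lay above each of the 6 other endocrine sums, the ratio to the higher of the other 2 classes being 14.4, 77 and 40.5 in the 3 pools. Sums in which the Gip-high class lay above all others in this way were found for 102 of 9656 genes tested (1.06%).

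Scarb1 (ENSMUSG00000037936, minus strand of chr5:125277087-125341094) was also highest in Gip-high cells in every pool, at a lower level. The Gip-high sums held 145, 59.1 and 280 CPM (162 ± 112, SD, n = 3), the Gcg-high sums 7.14, 15.01 and 5.01 CPM, and the Pzp-positive sums 2.35, 0 and 5.87 CPM. The 0 in the Pzp-positive cells of SLX-11179 stands for no read in 22 cells, which allows up to 1.85 CPM, the level that 3 reads would give. Again each Gip-high sum lay above all 6 others, although in SLX-11179 it was only 3.93 times the Gcg-high sum. Scarb1 overlaps Gm42633 on the same strand, and reads of the overlap cannot be told apart.

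Lpl (ENSMUSG00000015568, plus strand of chr8:68880491-68907448) and Cd36 (ENSMUSG00000002944, minus strand of chr5:17781690-17888801) did not have their highest sum in the Gip-high cells of every pool. The Lpl sums of Gip-high cells were 14.3, 16.1 and 36.6 CPM, those of Gcg-high cells 13.4, 17.5 and 2.16 CPM and those of Pzp-positive cells 11.8, 17.9 and 5.09 CPM. The Gip-high sum was thus apart from the other sums in SLX-9703 and not in the other pools, where its ratio to the higher other class was 1.07 (SLX-11175) and 0.90 (SLX-11179). Averaged over cells as log2(CPM + 1), which weights cells equally, Lpl was highest in Gip-high cells of all 3 pools, at 3.16, 4.21 and 3.64 against 2.60, 3.18 and 1.47 in Gcg-high cells and 2.32, 3.17 and 2.00 in Pzp-positive cells. For Cd36 the Gip-high sums were 4.76, 1.79 and 12.5 CPM, the Gcg-high sums 81.2, 8.13 and 30.2 CPM and the Pzp-positive sums 14.1, 3.09 and 0.628 CPM. The Gcg-high cells had the highest of the 3 endocrine sums in every pool, but in SLX-11175 a single cell held 77 of their 91 reads and in SLX-9703 a single cell held 741 of 1495. Without that cell the others stood at 14.2 and 16.1 CPM, and the 12 Pzp-positive reads of SLX-11175 came from 1 cell.

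**Figure D1:**
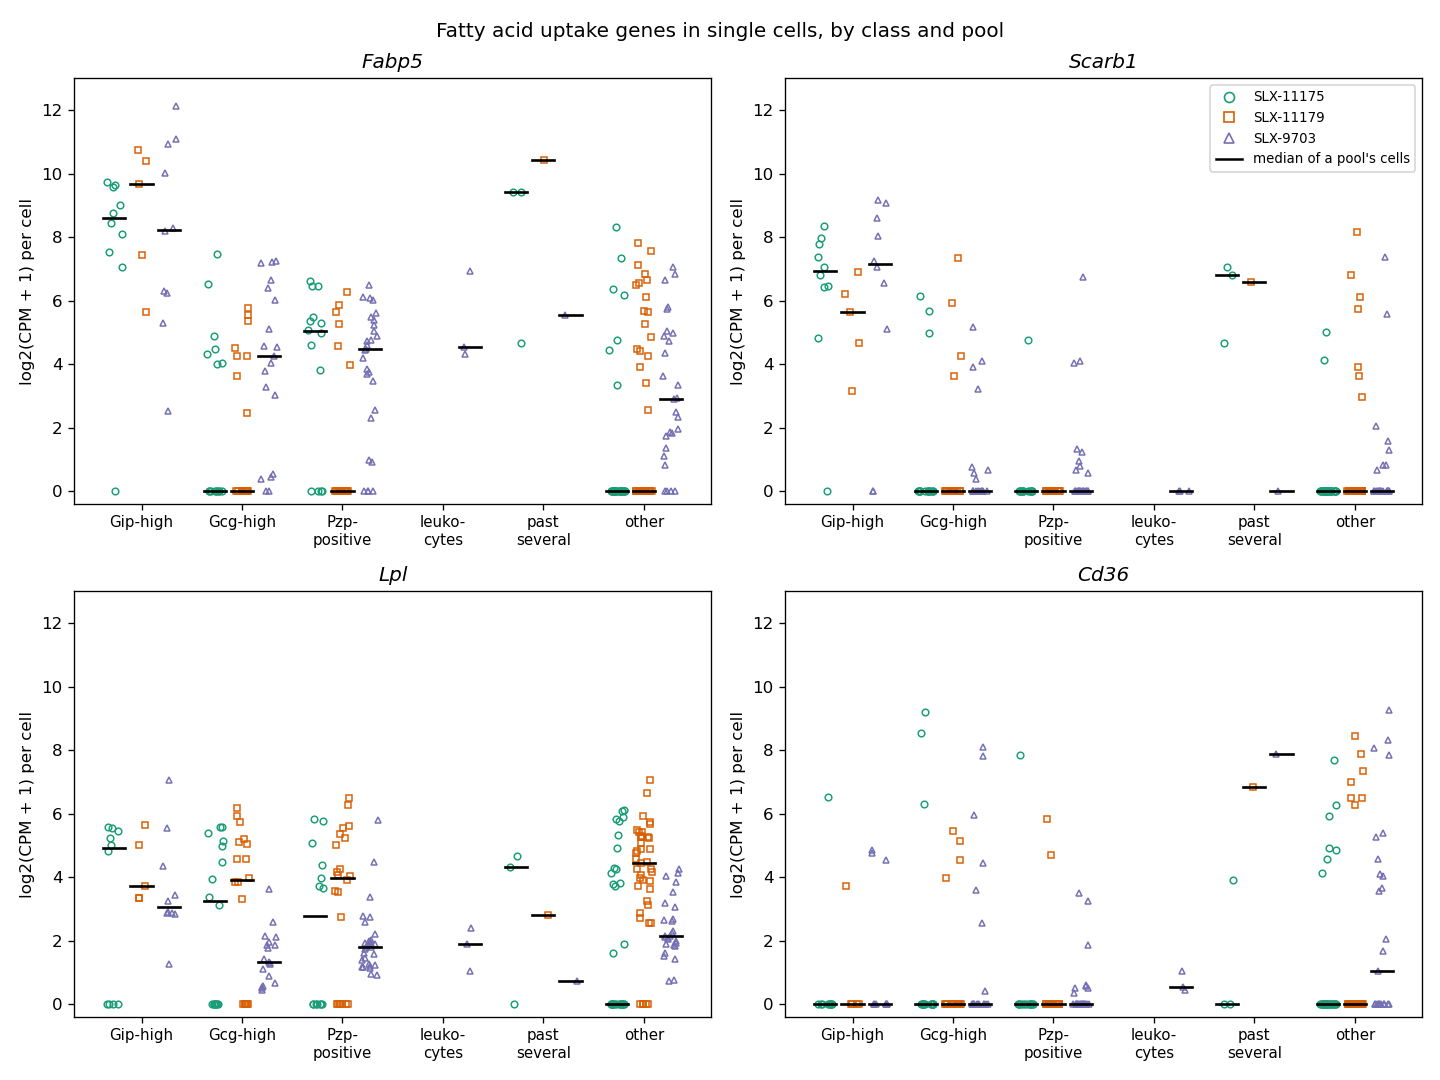
Level of each gene in each cell that passed the filters, as log2(CPM + 1), by class and pool (circles SLX-11175, squares SLX-11179, triangles SLX-9703; bars are medians of a pool's cells). Fabp5 and Scarb1 stand high in Gip-high cells of all 3 pools, Lpl levels overlap between the classes, and Cd36 is at 0 in most cells of every endocrine class, with 4 Gcg-high cells and 1 Pzp-positive cell above 100 CPM.

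The first comparison asked which of the 4 genes differed between Gip-high cells and the mean of the other 2 endocrine classes. Fabp5 was higher by 6.06 on the log2 scale (SE 0.44, adjusted p = 2.437e-06), a 66.5-fold difference, and Scarb1 by 5.48 (SE 0.70, adjusted p = 3.658e-04), a 44.6-fold difference (edgeR quasi-likelihood test on sums per pool and class, pool as a block, Benjamini-Hochberg over 9656 genes). In this comparison 279 genes passed a false discovery rate of 0.05 (2.89%), of which 128 were higher in Gip-high cells (1.33%) and 151 lower (1.56%). The study named Fabp5, Scarb1 and Lpl as genes of its Gip cluster from the cells of SLX-9703, so their direction there is not independent. On the 2 shallow pools alone, Fabp5 was higher by 5.87 (SE 0.61, adjusted p = 6.962e-06) and Scarb1 by 5.34 (adjusted p = 7.7e-04). With the reads of its 5 copies added, Fabp5 reached 711, 1425 and 2119 CPM in the Gip-high sums and 22.2 to 53.2 CPM in the other endocrine sums, and the difference was 5.98 (SE 0.43, adjusted p = 1.694e-06). Lpl was higher by 2.16 (SE 0.94), with an adjusted p of 0.280, and Cd36 by 0.13 (SE 1.03), with an adjusted p of 0.975. For Lpl the call depended on the tool, since DESeq2 gave 2.21 with an adjusted p of 0.0483, and its size on SLX-9703, without which it was 0.61 with an adjusted p of 0.843. For Cd36 the sign itself was not stable, being -1.65 without SLX-9703.

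Between Gcg-high and Pzp-positive cells none of the 4 genes passed the test, in a comparison where 26 of 9656 genes did (0.269%, with 0.155% higher and 0.114% lower in Gcg-high cells) and 418 had an unadjusted p below 0.05 (4.33%). Fabp5 differed by 0.13 (SE 0.50), a difference smaller than its SE. Scarb1 was higher in Gcg-high cells by 2.19 (SE 0.96), Lpl by 0.08 (SE 0.98) and Cd36 by 2.94 (SE 1.14), with adjusted p of 0.999, 0.999 and 0.871. The Cd36 difference had an unadjusted p of 0.0209 (edgeR), and the Gcg-high sum was the higher one in 3 of 3 pools. Without the cell with 77 reads, the Gcg-high sum of SLX-11175 was 14.16 CPM. The Pzp-positive sum of that pool was 14.12 CPM, with all 12 reads from 1 cell. DESeq2 also called none of the 4.

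**Figure D2:**
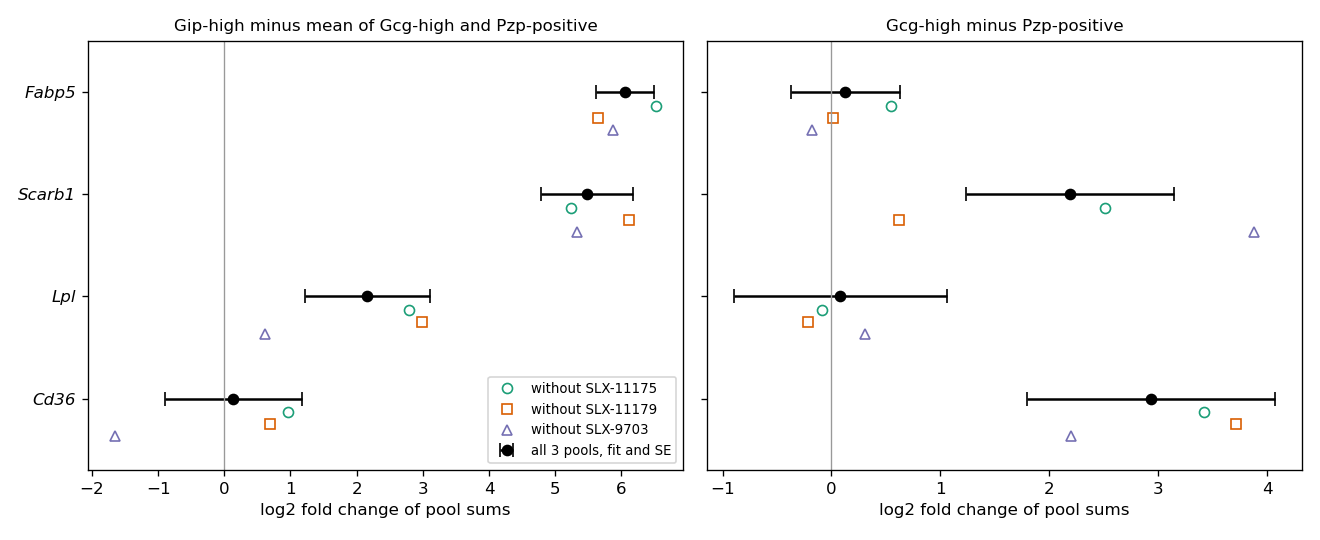
Log2 fold change of each gene between the summed cells of Gip-high and of the other endocrine classes (left) and between Gcg-high and Pzp-positive cells (right); black points with bars are the fit over 3 pools and its SE, and open symbols are fits without 1 pool (circle without SLX-11175, square without SLX-11179, triangle without SLX-9703). Fabp5 and Scarb1 stay between 5.24 and 6.52 whichever pool is left out, whereas Lpl falls to 0.61 and Cd36 turns to -1.65 without SLX-9703.

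Reads of abundant hormone genes lower the CPM of every other gene. Peptide hormone genes took 28.9 to 47.9% of the gene reads of the Gip-high sums, 26.3 to 32.9% of the Gcg-high sums and 13.01 to 25.4% of the Pzp-positive sums. Among single Gip-high cells the share ran from 1.26 through a median of 16.5 to 61.1%, and 11 of the 25 had under 100000 CPM of Gip. With the hormone genes left out, Fabp5 stood at 762, 2190 and 2802 CPM in the Gip-high sums and at 17.02 to 62.9 CPM in the other endocrine sums, and Scarb1 at 204, 113 and 459 CPM against at most 21.4 CPM.

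Per length of exon, Fabp5 led the members in Gip-high and Pzp-positive cells, and in Gcg-high cells it overlapped with Cd36. In Gip-high cells Fabp5 was at 317 ± 164 RPKM (CPM per kilobase of exon; SD, n = 3 pools), Scarb1 at 19 ± 13.1, Lpl at 2.13 ± 1.18 and Cd36 at 1.77 ± 1.54 RPKM. Lpl and Cd36 did not differ beyond their spread in that order. In Gcg-high cells Cd36 (11.1 ± 10.4 RPKM) and Fabp5 (7.62 ± 3.94 RPKM) overlapped, above Scarb1 (1.07 ± 0.62 RPKM) and Lpl (1.05 ± 0.76 RPKM). The Cd36 level there leaned on single cells. Without the top cell of each pool its sums fell from 81.2, 8.13 and 30.2 CPM to 14.2, 5.82 and 16.1 CPM. In Pzp-positive cells Fabp5 led with 7.69 ± 3.25 RPKM, and Cd36, Lpl and Scarb1 followed at 1.66 ± 2.00, 1.11 ± 0.61 and 0.322 ± 0.348 RPKM.

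Among single cells Fabp5 marked most but not all of the Gip-high class. It had a read in 24 of the 25 Gip-high cells and reached 100 CPM in 19 of them, against 4 of 53 Gcg-high and 0 of 64 Pzp-positive cells. In SLX-11175 its level per Gip-high cell ran from 0 through a median of 387 to 858 CPM, in SLX-11179 it was 48.5, 172, 812, 1352 and 1732 CPM, and in SLX-9703 it ran from 4.73 through a median of 300 to 4518 CPM. The study left out cells of its deeply sequenced mouse with under 750000 reads. At that minimum of gene reads, 5 of the 10 Gip-high cells of SLX-9703 remain. Of the 35 cells at or above 100 CPM of Fabp5, 22 had at least 10000 CPM of Gip. After every cell was thinned to the same 20000 reads Fabp5 had a read in 22 of 25 Gip-high cells, 15 of 53 Gcg-high cells and 21 of 64 Pzp-positive cells.

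Scarb1 had a read in 22 of the 25 Gip-high cells, and in 13 of them it reached 100 CPM. It ran from 0 to 328 CPM (median 122) in SLX-11175, from 7.86 to 118 CPM (median 48.5) in SLX-11179 and from 0 to 570 CPM (median 142) in SLX-9703. In the other classes 1 of 53 Gcg-high cells, 1 of 64 Pzp-positive cells and no leukocyte reached 100 CPM. After thinning it had a read in 19 of 25 Gip-high cells, 6 of 53 Gcg-high cells and 3 of 64 Pzp-positive cells. Of the 20 cells at or above 100 CPM of Scarb1, 16 were also at or above 100 CPM of Fabp5, and 14 of those 16 had at least 10000 CPM of Gip.

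Within the Gip-high class of SLX-9703, cells with more Gip had more Fabp5. There, 4 cells had 417201 to 549306 CPM of Gip and 1032 to 4518 CPM of Fabp5, and the other 6 had 10822 to 217477 CPM of Gip and 4.73 to 311 CPM of Fabp5. The 2 sets did not overlap in Fabp5, though within the set of 4 the cell with the least Gip had the most Fabp5, and they also differed in depth, with 2169372 to 3020270 reads on genes in the first and 466943 to 948000 in the second. Depth and Gip cannot be told apart in these 10 cells. Scarb1 overlapped between the sets (151 to 536 CPM and 0 to 570 CPM). Across the Gip-high cells, the correlation of log2(CPM + 1) of Fabp5 with that of Gip was 0.36 in SLX-11175 (10 cells), 0.95 in SLX-11179 (5 cells) and 0.91 in SLX-9703 (10 cells), and for Scarb1 it was 0.47, -0.38 and 0.60. These are descriptions of cells that share a pool, an animal and a range of depths.

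**Figure D3:**
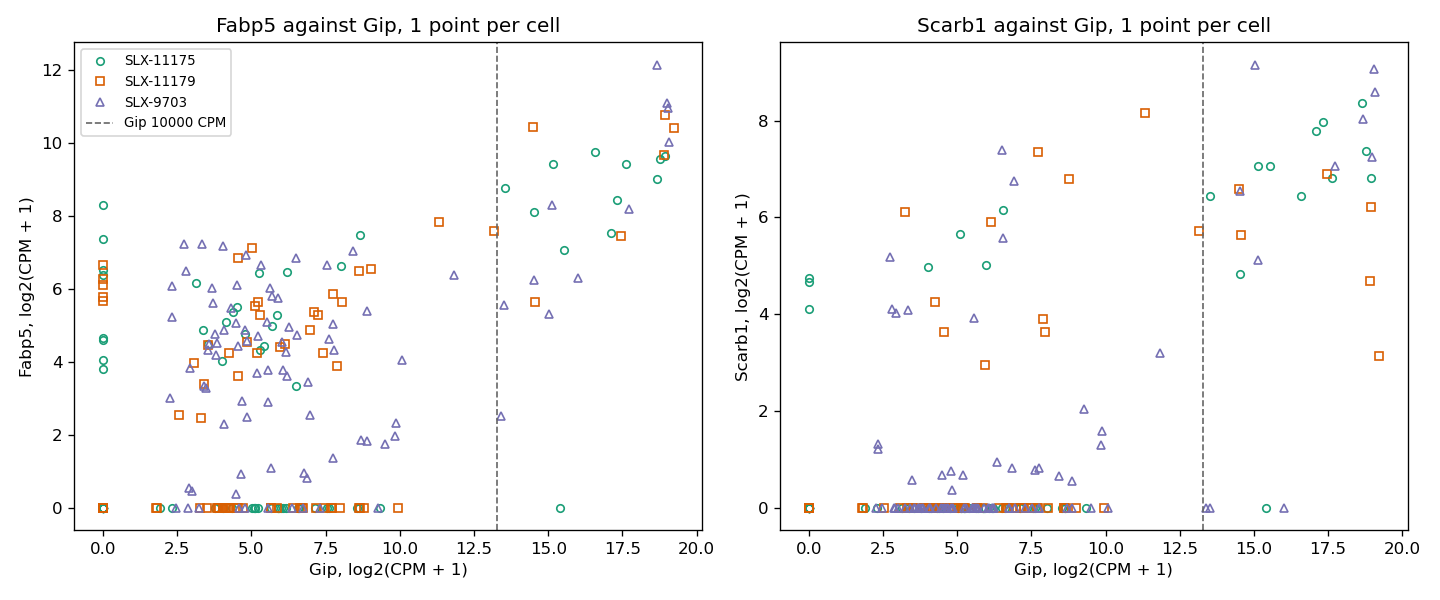
Level of Fabp5 (left) and Scarb1 (right) against Gip in each cell that passed, as log2(CPM + 1), with symbols for the pools and a dashed line at 10000 CPM of Gip. Right of the line 1 cell of SLX-11175 has no Fabp5 read, and the highest Fabp5 value, 4518 CPM, belongs to a cell with 417201 CPM of Gip.

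Cells with under 1000 CPM of Gip had summed levels of both genes below those of the Gip-high class. With under 100 CPM of Gip, the summed level of Fabp5 was 19.9, 15 and 35 CPM in the 3 pools and that of Scarb1 was 2.59, 3.71 and 4.04 CPM, over 55, 59 and 56 cells. With 100 to 1000 CPM of Gip, Fabp5 was at 39.97, 24.3 and 26.3 CPM. Scarb1 was at 0, 13.6 and 10.4 CPM in this band, in which 2 cells of SLX-11179 and 1 of SLX-9703 were above 100 CPM. Only 4 cells lay between 1000 and 10000 CPM of Gip. The 2 of SLX-11179 had 190 and 226 CPM of Fabp5 and the 2 of SLX-9703 had 15.4 and 82.4 CPM. Their Scarb1 ran from 51.8 to 283 CPM in SLX-11179 and from 0 to 8.20 CPM in SLX-9703.

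Lpl behaved unlike the other 3 genes at the level of reads. All 96 cells of SLX-9703 had a Lpl read, the 8 cells that failed the filters among them, with a median of 5 reads per cell. Only 71 of the 4241 genes with a median of 1 to 10 reads in that pool had a read in every cell. The number of Lpl reads had a Spearman rho of 0.07 with the gene reads of a cell over all 96 cells and of 0.67 within the 10 Gip-high cells. The median was 6 reads in Gip-high, 5 in Gcg-high, 5.5 in Pzp-positive cells, 4 in leukocytes and 5 in cells of no class, while the upper quartile was 35.2 reads in Gip-high, 6 in Gcg-high and 7 in Pzp-positive cells. In the shallow pools the median was 0 (SLX-11175) and 1 (SLX-11179) reads per cell. CPM of Lpl in a shallow cell is therefore the level of about 1 read, and the sums and tests of Lpl given above include these pools.

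Above that common level stood few cells. Of the 7 cells of SLX-9703 with over 20 Lpl reads, 3 were Gip-high cells with 287, 139 and 45 reads (131, 46.02 and 19.2 CPM), 2 were Pzp-positive cells with 129 and 42 reads (54.8 and 21.1 CPM), 1 was a Gcg-high cell with 26 reads and 1 a cell of no class with 28. The 3 Gip-high cells were among the 4 with over 400000 CPM of Gip, and they gave 471 of the 503 Lpl reads of their class. In Lpl, 58 words of 31 bases are shared with Maip1, a gene with 3872 reads over all cells against 1346 on Lpl, and the correlation of the 2 genes over the 88 cells of SLX-9703 was -0.12. What part shared sequence has in the common level was not tested.

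**Figure D4:**
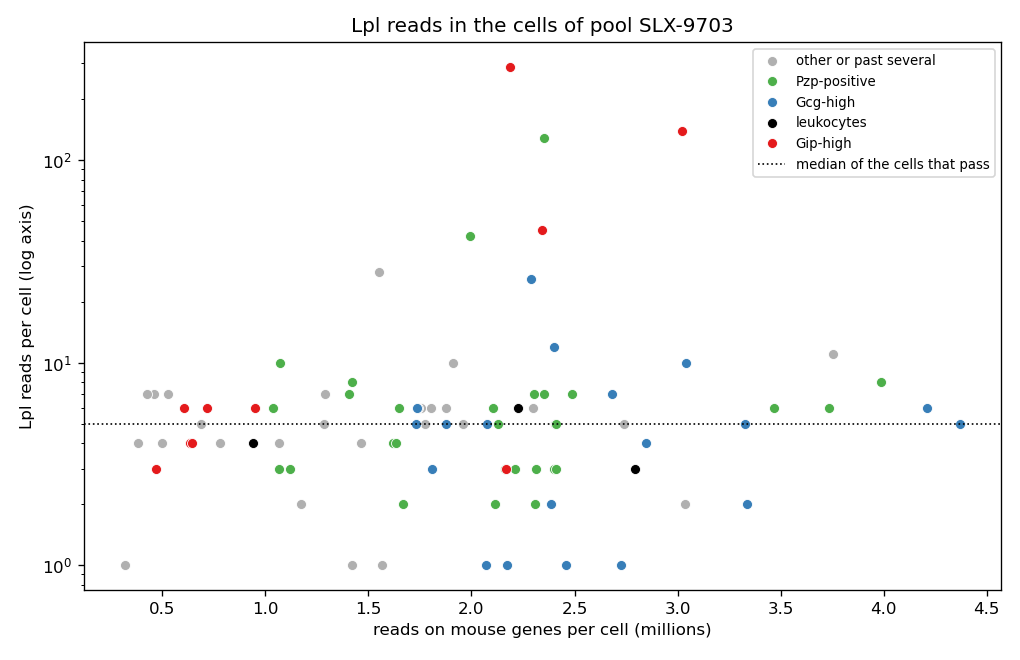
Lpl reads per cell (log axis) against reads on mouse genes per cell (linear axis), for the 88 cells of SLX-9703 that passed, coloured by class. Most cells of every class lie around the median of 5 reads (dotted line) at any depth, and 7 cells lie above 20 reads, 3 of them Gip-high.

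Cd36 was found in few cells at a high level. It reached 100 CPM in 16 of the 250 cells, 4 of SLX-11175, 5 of SLX-11179 and 7 of SLX-9703, with a highest value of 614 CPM. By hormone, 6 of the 16 had at least 10000 CPM of Gcg, 2 had at least 10000 CPM of Gip, 1 was Pzp-positive, 9 belonged to no class and none was a leukocyte. The 2 Gip cells also passed the Gcg threshold, so no cell of the Gip-high class itself was among them. All 16 had Cck, the cholecystokinin gene, at 44598 to 237002 CPM. Their median of Cck was above that of the other cells in SLX-11175 (174872 against 10995 CPM) and SLX-11179 (187192 against 47748 CPM) but not in SLX-9703 (91664 against 99280 CPM). Their median of Chga, a granin of endocrine granules, was above that of the other cells in each pool (1312 against 104, 758 against 96.5 and 1884 against 207 CPM). The cells of no class, which held the plasma cell markers of the shallow pools, had a median of 315 (SLX-11175), 720 (SLX-11179) and 70736 CPM (SLX-9703) of Cck, and their part in these contrasts was not tested. Only 1 of the 16 was also at or above 100 CPM of Fabp5, and 1 of Scarb1.

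The last comparison set the 3 leukocytes of SLX-9703 beside the endocrine classes. They gave a single sum with no replicate, so that no test of leukocytes was possible and their levels are a description of 3 cells. Fabp5 was present in all 3 leukocytes, at 19.1, 121.7 and 22.02 CPM, and 1 of them held 340 of their 407 reads. Their summed level of 68.3 CPM lay above those of the Gcg-high (42.2 CPM) and Pzp-positive (29.8 CPM) cells of the same pool and below that of the Gip-high cells. Without that 1 cell the other 2 leukocytes stood at 21.2 CPM, below all 3 classes, so the order among the classes rests on it.

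Scarb1 had no read in the 5960342 gene reads of the leukocytes. Against the level of 3 reads over the group (0.503 CPM), Scarb1 was at least 557-fold lower than in Gip-high cells of that pool, at least 9.95-fold lower than in Gcg-high cells and at least 11.7-fold lower than in Pzp-positive cells. The last 2 levels rest largely on single cells, with 148 of 248 and 256 of 346 reads, without which they were 2.21 and 1.59 CPM. Cd36 had 1 read in each leukocyte, 0.503 CPM in all, with an exact 95% counting interval of 0.104 to 1.47 CPM. This was 0.0167 times the Gcg-high level of the pool (interval 0.0034 to 0.0488), a level to which 1 cell gave 741 of 1495 reads, and 0.802 times the Pzp-positive level (0.158 to 2.53), and these intervals cover counting error only. Lpl, with 3 to 6 reads per leukocyte (2.18 CPM in all), was at the common level of the pool.

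Macrophages, endothelial cells and adipocytes are well known to make Cd36, Lpl or both, and their markers were low in the endocrine classes. Of 7 macrophage markers 1 to 5 had reads in an endocrine sum, together 1.49 to 76.7 CPM, the highest in Gcg-high cells of SLX-9703. Endothelial markers summed to at most 14.1 CPM, with Cdh5 at 0 in 8 of 9 sums, and adipocyte markers to at most 7.51 CPM, with Adipoq at 0 in all 9. Their part in the levels of Cd36 and Lpl was not tested.

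Of 58 other genes of lipid uptake and handling, 38 were tested between Gip-high cells and the other endocrine classes, none was higher and 1 was lower, beside 2.89% called among all genes. Their median difference was -0.20, close to the -0.23 of all genes tested. The gene that fell was Fabp2, the intestinal fatty acid binding protein, which was lower in Gip-high cells by -2.91 (SE 0.57, adjusted p = 0.0115). Its sums were 11.9, 184 and 117 CPM in Gip-high cells, 792, 1199 and 1017 CPM in Gcg-high cells and 1071, 1093 and 988 CPM in Pzp-positive cells. Every Gip-high sum lay below every other endocrine sum, as it did for 13.8% of all genes tested. The call was lost without SLX-11179 (-3.42, adjusted p = 0.0628). In the Gip-high cells, where Fabp5 was at 542 to 1710 CPM, Fabp2 was thus the lower of the 2 binding proteins, and in the other endocrine classes it was the higher one, in counts not scaled for length. Fabp2 is also an enterocyte marker. The 10 enterocyte markers, Fabp2 included, summed to 775, 1697 and 1239 CPM in Gip-high sums and to 2411 to 3907 CPM in the other endocrine sums, and their part in the Fabp2 difference was not tested. Fabp1, the liver form, was at 50.1 to 125 CPM in Gip-high cells and at 14.3 to 414 CPM in the others, with an adjusted p of 0.460.

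In the remaining lists no gene passed, and the pair with the smallest p of each is given. Among the fatty acid transport proteins these were Slc27a2 (-1.73, SE 0.82) and Slc27a1 (1.14, SE 0.82), and among the acyl-CoA synthetases, which activate fatty acids, Acsl1 (-1.82, SE 0.77) and Acsl5 (-0.61, SE 0.58). Of the sterol transporters, Abcg8 had no read in any Gip-high sum against 0 to 13.2 CPM in the others, and Abcg5 was at 0, 0 and 0.29 CPM against 0 to 11.1 CPM. Of the lipase partners, the protease Furin differed by -1.47 (SE 0.90) and Sel1l, needed for Lpl to leave the endoplasmic reticulum, by -0.62 (SE 0.46). Among the other lipases the values were -1.96 (SE 0.62) for Mgll, the monoglyceride lipase, and -0.80 (SE 0.75) for Pnpla2, and among genes of triglyceride assembly -1.20 (SE 0.69) for Mttp and -0.90 (SE 0.62) for Apob. Of the nuclear receptors, Ppara, which is activated by fatty acids, was at 16.7, 5.37 and 15.7 CPM in Gip-high cells, 3.57, 26.3 and 4.08 CPM in Gcg-high cells and 0, 1.23 and 0.07 CPM in Pzp-positive cells (adjusted p = 0.0710), and Nr1h3 differed by -3.25 (SE 1.43).

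Between Gcg-high and Pzp-positive cells none of the same 38 genes passed, beside 0.269% of all genes. The smallest adjusted p in the lists (edgeR) belonged to Ppara (5.37, SE 1.54, adjusted p = 0.334) and Acsl5 (-2.02, SE 0.65, adjusted p = 0.491), the latter at 8.93 to 77.02 CPM in Gcg-high and 88.2 to 156 CPM in Pzp-positive cells.

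For the leukocytes, some of the 58 genes are described by level alone. They were chosen by a fit whose single leukocyte sum allows no test, so that being chosen is no result. Acsl5 was at 553 CPM in the leukocyte sum against 2.38 to 156 CPM in the endocrine sums. Fabp1 and Fabp2 were at 1.34 and 4.70 CPM, the transport proteins Slc27a1, Slc27a2 and Slc27a4 at 0, 0 and 0.34 CPM, and Apob, Mttp, Dgat2 and Mogat2 of triglyceride assembly at 0 to 1.01 CPM. The others, Vldlr, Npc1l1, Furin and Mgll, were at 0 to 2.52 CPM.

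Genes whose level rose and fell with a member over the 88 cells of SLX-9703 were found by the correlation of log2(CPM + 1), and the 3 highest are given with the values in SLX-11175 (75 cells) and SLX-11179 (87 cells). For Fabp5 these were 3 of its own copies, Gm14328 (0.88, 0.52 and 0.64), Gm6166 (0.87, 0.57 and 0.68) and Gm13998 (0.82, 0.50 and 0.62), among them both copies printed above. For Scarb1 they were Pkib (0.73, 0.56 and 0.52), Tekt2 (0.71, 0.47 and 0.49) and Rgs4 (0.70, 0.52 and 0.33). For Lpl they were Smoc2 (0.53), Cnr1 (0.48) and Tmem132b (0.47), with values of -0.23 to 0.25 in the shallow pools. For Cd36 they were Alcam (0.56), Cyp4b1-ps1 (0.49) and BB557941 (0.47), with values of -0.05 to 0.34 in the shallow pools. The cells of a pool share their animal and library preparation, and depth varies among them.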

How the data were processed

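RNA of single sorted cells was made into cDNA by Smart-seq2, which marks neither strand nor molecule. According to the submitters' processing notes reads were aligned with GSNAP (version 2015-09-29) to mm10 and counted with HTSeq (version 0.5.3p3). The authors deposited unnormalized counts, 1 whole number per gene for each cell. Lines that name no gene (77.6% of counts) and 92 spike-ins (5.34%) stayed out of library sizes and tests, and 4 columns that match no sample were not used. Symbols and coordinates came from GENCODE M21. The annotation used for counting is not given in the sources used here.

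Cells needed 20000 gene reads and at most 20% mitochondrial reads, and no doublet caller was run, so wells with more than 1 cell were not removed. For each pool, the counts of a class with 3 or more cells were added up, scaled by TMM, filtered by filterByExpr and tested with edgeR 4.0.16 (quasi-likelihood, false discovery rate 0.05 over all genes tested). Deviations of sums from their class means had correlations of 0.045 to 0.465 in 9 pairs of the same pool. In 18 pairs of different pools they were -0.243 to 0.108. Centring on the class means ties the 2 sets of pairs, so the second is no independent reference for the first. The pool was a block since a pool was taken as 1 mouse. Leukocytes entered only a model of their own, whose single leukocyte sum gives no test, and their levels are described. DESeq2 1.42.0, other filters, thresholds and scalings and an exact permutation test were alternatives. Levels are CPM of sums, and RPKM used the union of exons. Code was tested on simulated data. The members, gene lists and alternatives were chosen with earlier results of these data known. Genes named are the members, the class genes, list genes that were called or had the 2 smallest p of a list without calls, and the 3 genes most correlated with each member. Counting intervals and the 3-read floor cover counting error only. The study's test of its cells was not repeated, since cells are not replicates.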

Additional observations from a re-analysis of the deposited data

Results flagged for a closer look

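Of 12 sets of Gip-high cells (4 genes in 3 pools) tested for a cell far from the others by Dixon's 95% critical value, 4 passed. Chance flags about 1 in 20 sets of normally distributed values, which does not hold for skewed levels or for sets with a single value above 0, so the number that passed is not read against it. In SLX-9703, cell 44 stood apart in Fabp5 with 4518.2 CPM, the next being at 2159.6 CPM, and in Lpl with 131.2 CPM, the next being at 46.02 CPM. For Cd36, cell 41 of SLX-11175 was at 90.6 CPM and cell 28 of SLX-11179 at 12.3 CPM, each with all other Gip-high cells of its pool at 0, and these values stand for 2 reads and 1 read.

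Cells used in no comparison held some of the genes above both the Gcg-high and the Pzp-positive level of their pool. Cells past several thresholds had 571.34 CPM of Fabp5 in SLX-11175 (3 cells), 1391.99 CPM in SLX-11179 (1 cell) and 45.8 CPM in SLX-9703 (1 cell). Their Scarb1 stood at 100.82 CPM in SLX-11175 and 94.77 CPM in SLX-11179, and their Cd36 at 112.54 CPM in SLX-11179 and 231.64 CPM in SLX-9703. Of these 5 cells, the 4 with Gip and Gcg held 684, 687, 1392 and 45.8 CPM of Fabp5, and the cell with Gcg and Pzp held 24.2 CPM. Cells of no class had 23.74 CPM of Fabp5 in SLX-11179, and 24.4 CPM of Cd36 in SLX-11179 and 64.29 CPM in SLX-9703. These differences were not tested.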

How the results depend on the processing

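Fabp5 and Scarb1 were higher in Gip-high cells under every alternative run (5.36 to 6.52 and 5.04 to 6.43 on the log2 scale, Scarb1 being at 6.11 without SLX-11179) and were called in each edgeR or DESeq2 fit. For both, the exact permutation of classes within pools gave the smallest p that its 27 arrangements allow (0.037), as it did for Lpl (1.21). It uses means over cells of log2(CPM + 1), which for Lpl also depend on depth. For Lpl the permutation therefore cannot tell class from depth. Lpl was called by DESeq2 (2.21) and by no edgeR fit, and it ranged from 0.61 to 2.98 when 1 pool was left out. Cd36 turned negative with lower class thresholds (-0.25), without the replicate block (-0.44), in the permutation test (-0.015) and without SLX-9703, was at 2.28 with cells past several thresholds given to the first class, and ranged from -1.65 to 0.96 when 1 pool was left out. Between Gcg-high and Pzp-positive cells, Scarb1 ranged from 0.62 (without SLX-11179) to 3.88 (without SLX-9703), Cd36 from 2.20 to 3.72, Fabp5 from -0.18 to 0.55 and Lpl from -0.21 to 0.31 when 1 pool was left out, and Lpl was at -0.071 with lower thresholds. Fabp2 lost its call without SLX-11179 (adjusted p = 0.0628). The 279 genes called for Gip-high cells became 156 with a minimum of 50000 reads, 953 with DESeq2, 540 without a low-count filter, 251 without the replicate block and 109 to 166 without 1 pool. The 26 called between Gcg-high and Pzp-positive cells became 41 with higher thresholds, 42 with cells past several thresholds given to their first class, 73 after thinning, 117 with DESeq2, 70 without a filter and 9 to 14 without 1 pool. A fit that gave the single leukocyte sum the spread of the endocrine sums passed 3008 genes, and 706 after thinning, where fewer genes were tested, but it is no test of leukocytes and served only to choose the genes described. The replicate block changed no call of the 4 genes. The share of calls higher in Gip-high cells was 45.9%, and 56.1% with cells past several thresholds given to the first class. The cause of these changes was not tested. The permutation test was run only for Gip-high cells, and shallow cells limit all low genes.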
